A study of Mus musculus with 6 samples.

Results

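The genes described here encode enzymes that write or erase methyl groups on histones and DNA, or take acetyl groups off histones and other proteins. They were taken from the deposited gene tables by symbol: names beginning with Kmt, Kdm, Setd or Dnmt and a number, Hdac with a number, Sirt1 to Sirt7, Tet1 to Tet3, Ezh1 and Ezh2, without Kdm5d and without pseudogenes. The rule found 65 of the 55376 genes in the tables. Of these, 60 were sorted by role into methyltransferases, demethylases, deacetylases and enzymes of DNA methylation. The other 5 were 3 antisense transcripts (Dnmt3aos, Dnmt3bos and Kdm6bos) and 2 further genes, Dnmt3c and Kdm4dl.

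The data came from RNA immunoprecipitation sequencing (RIP-seq) of CPEB1, an RNA-binding protein, in muscle stem cells (satellite cells, SCs) of C57BL/6 male mice aged 3 months. SCs were sorted as CD31-, CD45-, Sca1- and Vcam1+ cells and lysed fresh after isolation. Each of 3 groups had 2 libraries: RNA brought down with an anti-CPEB1 antibody (CPEB1 IP), RNA brought down with a control antibody (IgG), and RNA of the lysate that was not precipitated (input). The groups shared the same mouse strain, age and cell type and carried no modified allele and no drug treatment, and the number of animals behind a library is not given in the sources used here. The study describes its RIP experiments as independent and its sequencing replicates as biological, and the p-values measure the spread between the 2 libraries of a group.

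Histone methylation marks active or silent chromatin according to the residue that carries it, and acetylation of histone tails goes with open chromatin, so these enzymes set which genes a stem cell can use. In SCs they are known for keeping muscle genes poised during quiescence and for opening or closing them as the cells activate and differentiate. CPEB1 binds cytoplasmic polyadenylation elements (CPEs) in the 3′ UTR of mRNAs and controls the length of the poly(A) tail and translation, so RNA in its precipitate that exceeds the IgG level is a measure of association with CPEB1.

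One member stood apart from all others. The mRNA of Kdm5b, a Jumonji demethylase that removes methyl groups from lysine 4 of histone H3, was 3.71-fold higher in CPEB1 IP than in IgG and 3.90-fold higher than in input. Its paralogue Kdm5a differed by 1.26-fold and 1.32-fold, and Kdm5c, the third of the family among the genes described here, did not pass the test. Kdm5d was left out by the rule. Because CPEB1 recognises CPEs, the annotated 3′ UTRs of these genes (GENCODE M21, mm10) were searched on the transcript strand for TTTTAT and TTTTAAT, matches of which may share bases. Windows of 30 bases around the elements are given 5′ to 3′ with the element in capitals, for every element of Kdm5b, the only one of Kdm5a, and the only one of Hdac1, which was second to Kdm5b among the members higher in CPEB1 IP than in IgG.

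Kdm5b, chr1:134630959-134630964, plus strand: tctcgttcttccTTTTATccttctctcgct
Kdm5b, chr1:134632486-134632491, plus strand: cctatggaatgcTTTTATtgtcattgaatt
Kdm5b, chr1:134633284-134633290, plus strand: attcatttgaaTTTTAATggggtccaatct
Kdm5b, chr1:134633364-134633370, plus strand: tctgacgatgtTTTTAATtctgtagctaaa
Kdm5b, chr1:134633768-134633773, plus strand: cagaagctaaggTTTTATaaaaagaacaca
Kdm5b, chr1:134634200-134634206, plus strand: tgaagttccagTTTTAATggcggacaaaac
Kdm5a, chr6:120441388-120441393, plus strand: atcacgtaagaaTTTTATttggttattgtt
Hdac1, chr4:129516556-129516561, minus strand: tcacttctcagaTTTTATattttctattcc

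The first Kdm5b element lies in the shorter 3′ UTR of 712 bases of 1 transcript, and the other 5 lie in the 3′ UTR of 3911 bases of another, between 2794 and 1079 bases from the transcript end. The single Kdm5a element is 3181 bases from the transcript end. A match is a stretch of letters and no evidence of binding.

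Levels in input, compared per length as the deposited FPKM (fragments scaled to exon length and to library size), covered a wide range. Kdm6b, the demethylase of lysine 27 of histone H3 that removes a silencing mark, was far above the rest at 118 and 118 FPKM. Sirt2, a cytosolic NAD-dependent deacetylase, followed at 34.7 and 33.8 FPKM, and Hdac1, a class I deacetylase of several corepressor complexes, at 29.1 and 33.8, so that the ranges of these 2 genes touched. Next came Hdac3, the deacetylase of the NCoR complex, at 20.9 and 20.6 and Kmt2e at 17.7 and 23.4 FPKM, which also overlapped. The median over the 65 members was 4.48 FPKM, and 10 members were above 10 in both input libraries. Another 10 were under 1 in both, among them Hdac9 and Tet1, and 4 of these had no count in either.

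Other enzymes that have been studied in SCs were lower than these. Ezh1 and Ezh2, the catalytic subunits of Polycomb repressive complex 2, were at 5.70 and 6.38 and at 3.12 and 4.62 FPKM in input. Kdm6a, which removes the mark that they place, was at 3.99 and 5.0, far under Kdm6b. Kmt2a, a methyltransferase for lysine 4 of histone H3, was at 6.43 and 7.17, and Kmt5b, which methylates lysine 20 of histone H4, at 3.98 and 5.01 FPKM. Hdac2, the close paralogue of Hdac1, was at 8.55 and 18.5, the widest gap between input libraries among these genes. Of the DNA methyltransferases, the de novo enzyme Dnmt3a was at 5.22 and 3.99 and the maintenance enzyme Dnmt1 at 3.09 and 2.12. The dioxygenases that oxidise methylated cytosine, Tet2 and Tet3, were at 8.71 and 7.61 and at 2.34 and 2.44 FPKM.

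**Figure D1:**
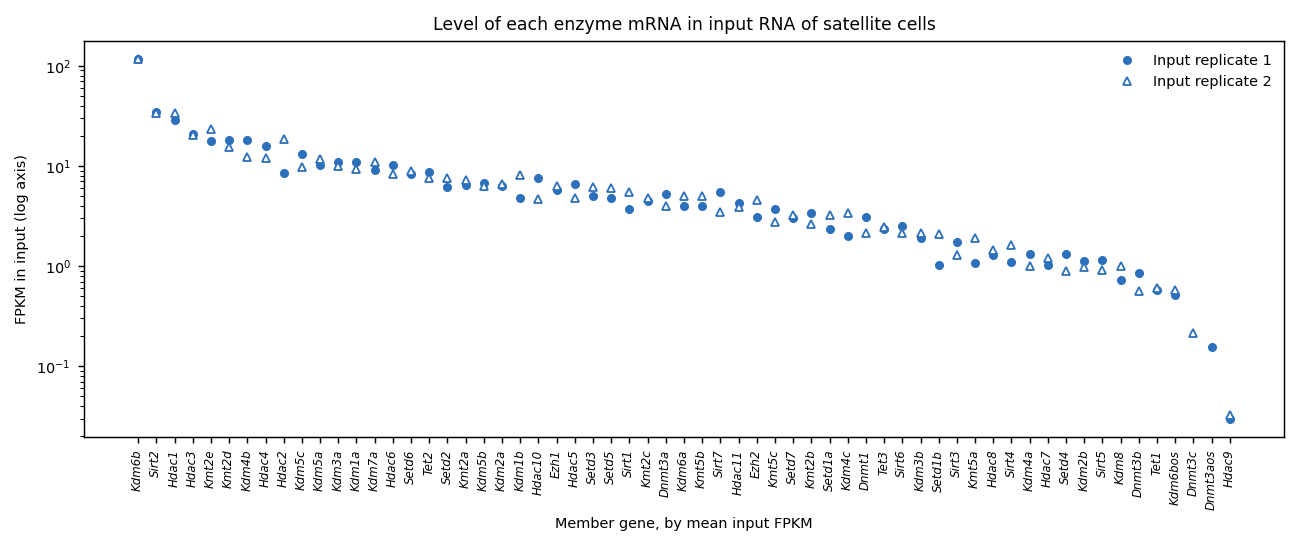
FPKM in each of the 2 input libraries (log axis) for the members with a count in input, in order of their mean. Kdm6b stands at 118 in both libraries, above Sirt2 at 34.7 and 33.8, and most members lie between 1 and 20.

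The libraries differed in depth, with counts on genes of 1284716 to 1359052 in IgG, 2564323 to 4941653 in CPEB1 IP and 3270067 to 3314547 in input. Members took a like share of these counts everywhere, from 0.516% in an input library to 0.612% in a CPEB1 IP library. Satellite cell markers such as Pax7, Vcam1 and Calcr were detected in every group, with a summed level of 2025 to 2439 FPKM over 10 markers in CPEB1 IP, 1135 to 1155 in IgG and 2436 to 3001 in input. No other list of cell type markers exceeded 233 FPKM in a library. Deposited FPKM was low in IgG against CPEB1 IP for most genes, so these sums do not compare the groups.

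The first question was which of these mRNAs came down with CPEB1 beyond the control antibody. Levels are given as CPM, read counts divided by a library size that TMM adjusted over all 6 libraries so that the bulk of genes match, and log2 fold changes come from the fit of the 2 groups compared, with a call at an adjusted p under 0.05 over all genes tested. Of the 56 members with enough counts to be tested, 6 were higher in CPEB1 IP than in IgG (10.7%) and 5 were lower (8.93%). Over all 12124 genes tested the shares were 14.7% higher and 18.7% lower, so in this fit members were called no more often than genes at large. Their median log2 fold change was 0.02, beside -0.01 for all genes. With DESeq2, 15 of 64 members tested were higher and 3 lower, beside 2619 and 984 of all genes. Without a filter on low counts, 17 of 64 were higher and 4 lower, beside 3513 and 2336 of all genes. These 2 fits kept every gene with a count, far more than 12124. Their counts over all genes therefore give no share to set beside that of the members. Those scalings raised the centre of all genes by 0.28 and 0.40 on the log2 scale.

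Kdm5b (ENSMUSG00000042207.17, chr1:134560171-134635285, plus strand) was at 546 and 566 CPM in CPEB1 IP, against 143 and 143 in IgG, and input had 158 and 137. Both CPEB1 IP libraries were far above all 4 others, which lay close together. The log2 fold change was 1.89 ± 0.10 (SE, n = 2 libraries a group) over IgG, with an adjusted p of 8.02e-11 by edgeR's quasi-likelihood test, and ranked 14 of 12124 genes by size and 4 by p. Over input it was 1.96 ± 0.14 with an adjusted p of 1.24e-06, rank 147 of 12171 by size. IgG and input were -0.05 ± 0.17 apart on the log2 scale, with an adjusted p of 0.850. The 16555 bases of Kdm5b exons share none with another annotated gene. Kdm5b was called against IgG and against input under every alternative tried, with a log2 fold change between 1.89 and 2.29 and between 1.85 and 2.05.

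Kdm5a and Kdm5c, the other KDM5 genes described here, did not share that level. Kdm5d is not among the genes compared. Kdm5a was at 267 and 272 CPM in CPEB1 IP, against 195 and 213 in IgG, and input had 205 and 217. Its CPEB1 IP libraries were above the 4 others, but the log2 fold change was only 0.34 ± 0.10 over IgG (adjusted p = 0.0151) and 0.41 ± 0.13 over input (adjusted p = 0.0257). Without CPEB1 IP replicate 2 or IgG replicate 1 the call over IgG was lost (adjusted p = 0.0861 and 0.0547, over all alternatives 7.77e-06 to 0.0861). The call over input passed in 5 of 10 settings. It was lost without CPEB1 IP replicate 1 or 2 (adjusted p = 0.214 and 0.360), with DESeq2 (adjusted p = 0.0660), without the filter on low counts (adjusted p = 0.0695) and with the replicate number as a block (adjusted p = 0.0658). Kdm5a shares exonic bases with Ccdc77. Kdm5c, an X-linked member, was at 88.7 and 108 CPM in CPEB1 IP, against 67.6 and 91.0 in IgG, and input had 133 and 90.4, with groups that overlapped and no call in any comparison. Per length, Kdm5b was at 1.75 and 1.78 times the FPKM of Kdm5a in CPEB1 IP, 0.626 and 0.577 times in IgG, and 0.659 and 0.540 times in input. The order of Kdm5a and Kdm5b thus turned in the CPEB1 IP: Kdm5b was the lower of the pair in IgG and in input and the higher in both CPEB1 IP libraries. Kdm5b made up 8.65% and 9.05% of all member counts in CPEB1 IP, against 2.60% and 2.71% in IgG and 2.73% and 2.54% in input.

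**Figure D2:**
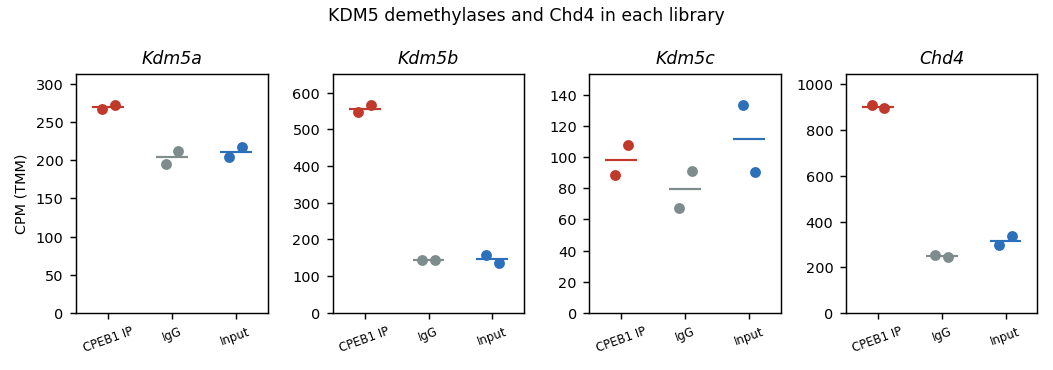
TMM-scaled CPM of the demethylases Kdm5a, Kdm5b and Kdm5c and of Chd4, the ATPase of the NuRD corepressor, in each library (points) with the mean of each group (bars), on linear axes from 0. Kdm5b and Chd4 are higher in both CPEB1 IP libraries than in the 4 others by more than the groups spread, Kdm5a is slightly higher and Kdm5c overlaps.

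Of the Hdac genes, 1 of 4 class I (Hdac1), 0 of 4 class IIa and 1 of 3 class IIb and IV (Hdac6) were higher than in IgG. Hdac9, described below, was lower, where 14.7% of all genes were higher and 18.7% lower. Hdac1 was at 122 and 128 CPM in CPEB1 IP, against 83.5 and 60.5 in IgG, and input had 141 and 152. CPEB1 IP lay above IgG and under input, and the difference from IgG was 0.74 ± 0.15 on the log2 scale (adjusted p = 8.08e-04), while that from input was -0.18 ± 0.14 (adjusted p = 0.333). It was IgG that stood low against input, by -1.03 ± 0.19 (adjusted p = 3.46e-05). Hdac6, a cytoplasmic deacetylase that acts on tubulin, had the same order of groups, with 55.8 and 55.9 CPM in CPEB1 IP, against 34.9 and 32.8 in IgG, and input had 84.7 and 63.0. Its log2 fold change over IgG was 0.66 ± 0.19 (adjusted p = 0.0117), which did not pass without CPEB1 IP replicate 1 (adjusted p = 0.0634) or replicate 2 (adjusted p = 0.0995), the highest of all alternatives. Hdac1 held its call under every alternative. Hdac2 and Hdac3, the other class I enzymes of this list with ample counts, were not called, and Hdac3 was nearly level at 117 and 123 CPM in CPEB1 IP, against 122 and 94.7 in IgG, and input had 119 and 109.

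Dnmt3a and Kmt2e followed the pattern of Hdac1, in which the precipitate of CPEB1 was like input and IgG was low. Dnmt3a was at 104 and 107 CPM in CPEB1 IP, against 71.4 and 75.0 in IgG, and input had 123 and 86.9, with a log2 fold change of 0.47 ± 0.14 over IgG (adjusted p = 0.0137) and 0.06 ± 0.17 over input (adjusted p = 0.815). Without CPEB1 IP replicate 1 or replicate 2 it lost the call over IgG (adjusted p = 0.0582 and 0.140, over all alternatives 1.30e-04 to 0.140). Kmt2e, a SET domain protein that binds methylated histone H3, was at 255 and 286 CPM in CPEB1 IP, against 194 and 219 in IgG, and input had 261 and 319. Over IgG it was 0.33 ± 0.11 higher on the log2 scale (adjusted p = 0.0218), a call lost without CPEB1 IP replicate 2 (adjusted p = 0.219) or IgG replicate 1 (adjusted p = 0.0862, over all alternatives 1.02e-05 to 0.219). Of the 6 mRNAs higher than in IgG, only Kdm5b and, in some settings, Kdm5a were therefore called as higher than in input too. The same overlap over all genes was not counted. Dnmt3a shares exonic bases with its antisense transcript Dnmt3aos and Kmt2e with Srpk2, and libraries made by SMART-seq2 do not mark strand. Exons of 27 of the 65 members overlap those of another annotated gene, Kdm6b, Kdm7a, Hdac4, Setd4, Tet2, Setd1a, Hdac11, Sirt1 and Ezh2 among them, and reads in the shared bases cannot be told apart.

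Among the 5 members lower in CPEB1 IP than in IgG, levels were mostly low. Kdm4a, Sirt5 and Hdac9 passed the filter on low counts only through IgG, where they were high against CPEB1 IP. For Sirt5, CPEB1 IP replicate 1 was just under the limit. Their values for CPEB1 IP against IgG are therefore a description. Kdm4a, a demethylase of lysines 9 and 36 of histone H3, had 3 and 20 counts in CPEB1 IP, against 14 and 22 in IgG, and input had 35 and 24, or 1.25 and 4.13, 10.6 and 16.0, and 10.7 and 7.56 CPM. Its log2 fold change was -2.18 ± 0.50 against IgG (adjusted p = 0.00199) and -1.54 ± 0.50 against input (adjusted p = 0.0303). Against input, Kdm4a passed the filter only through the input libraries, so that value is a description too. Without CPEB1 IP replicate 1 (adjusted p = 0.0549) or IgG replicate 2 (adjusted p = 0.0602) the call against IgG was lost, and without CPEB1 IP replicate 1 (adjusted p = 0.185) or input replicate 1 (adjusted p = 0.0980) that against input. Sirt5, a mitochondrial enzyme that removes succinyl groups, was at 5.42 and 5.78 CPM in CPEB1 IP, against 24.3 and 20.4 in IgG, and input had 9.82 and 7.24. Here the IgG libraries were the highest, and the log2 fold change was -2.04 ± 0.37 in CPEB1 IP against IgG (adjusted p = 3.07e-04) and 1.38 ± 0.40 in IgG against input (adjusted p = 0.00527). The second of these calls was lost without IgG replicate 1 (adjusted p = 0.0550), without the filter on low counts (adjusted p = 0.0569) and with DESeq2 (adjusted p = 0.181).

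Setd4, a SET domain methyltransferase known from quiescent stem cells, behaved like Sirt5, with 7.50 and 8.88 CPM in CPEB1 IP, against 18.2 and 23.3 in IgG, and input had 10.1 and 6.30. The log2 fold change against IgG was -1.38 ± 0.36 (adjusted p = 0.00504), a call lost without IgG replicate 2 (adjusted p = 0.0673), with DESeq2 (adjusted p = 0.0751) and without the filter on low counts (adjusted p = 0.0863). IgG exceeded input by 1.33 ± 0.41 (adjusted p = 0.00912), and this did not pass without IgG replicate 2 (adjusted p = 0.109) or input replicate 2 (adjusted p = 0.0778), with DESeq2 (adjusted p = 0.230) or without the filter (adjusted p = 0.0817). Tet2 was at 142 and 150 CPM in CPEB1 IP, against 216 and 176 in IgG, and input had 207 and 168, so IgG and input overlapped and CPEB1 IP was under both. Its difference of -0.48 ± 0.12 from IgG (adjusted p = 0.00366) was -0.27 without IgG replicate 1 (adjusted p = 0.143), -0.20 with DESeq2 (adjusted p = 0.345) and -0.08 without the filter on low counts (adjusted p = 0.748). Hdac9, a class IIa deacetylase of muscle, was named after its values were seen, as it was too low for the naming rule. It had 4 and 11 counts in CPEB1 IP, against 24 and 24 in IgG, and input had 2 and 2, which gave -3.16 ± 0.46 against IgG (adjusted p = 4.20e-05) and 4.72 ± 0.64 in IgG against input (adjusted p = 1.99e-07). It was too low to be tested between CPEB1 IP and input, so it passed the filter on low counts only through IgG, the group in which it was high, and these values are a description. Hdac9 spans 869516 bases, the longest span of all members tested.

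**Figure D3:**
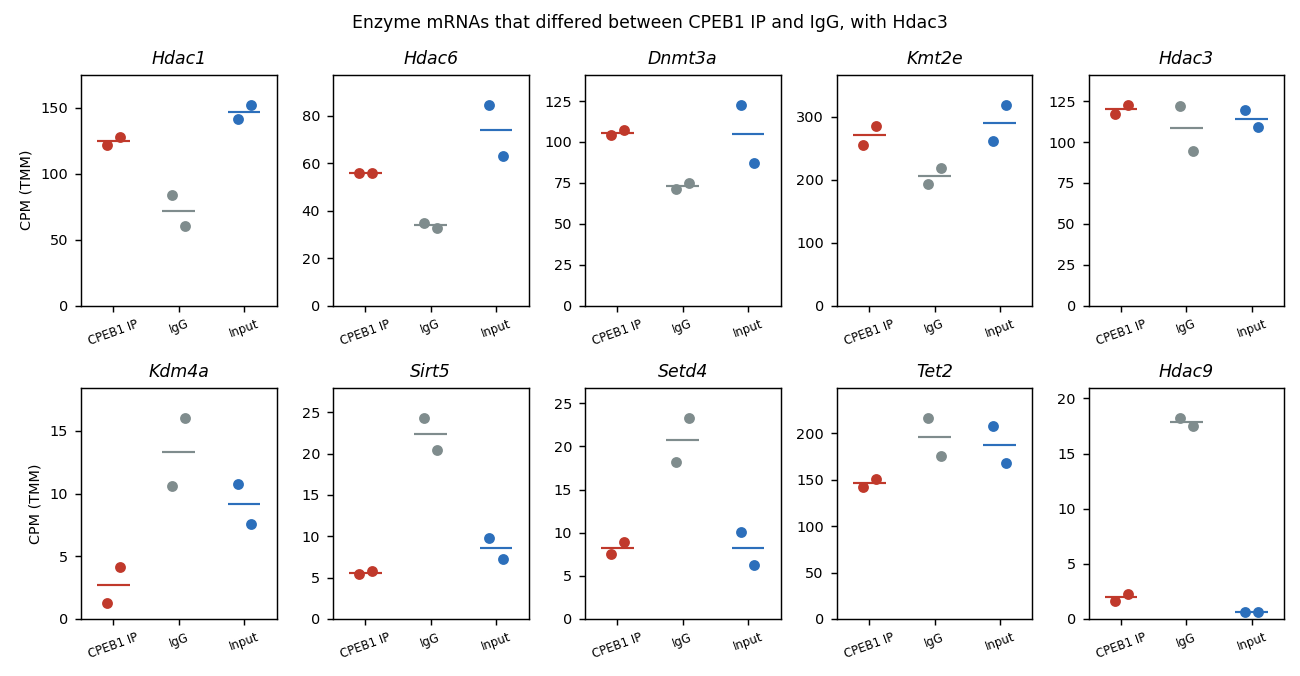
TMM-scaled CPM in each library (points) and group means (bars), on linear axes from 0, for the members that differed between CPEB1 IP and IgG apart from Kdm5a and Kdm5b, with Hdac3 as a member that did not pass the test. In Hdac1, Hdac6, Dnmt3a and Kmt2e the IgG points are the lowest, and in Sirt5, Setd4 and Hdac9 they are the highest.

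The study took a gene as associated with CPEB1 when its FPKM in CPEB1 IP exceeded that in IgG more than 2-fold in each experiment and the count test called it. Libraries were paired here by replicate number, which the labels do not tie to an experiment. With a pseudocount of 1 added to the FPKM, 4 of 56 members met such a rule, Kdm5b, Kdm5a, Hdac1 and Hdac6, beside 12.1% of all genes tested. Kdm5b had ratios of 5.02 and 5.49 and Kdm5a of 2.03 and 2.03, just inside the limit. Kdm5a was at 12.3 and 13.1 FPKM in CPEB1 IP and 5.59 and 5.93 in IgG, so its place rests on that pairing. The deposited FPKM of IgG was low for most genes, since the median ratio of CPEB1 IP to IgG over all genes tested was 1.67 for replicate 1 and 1.78 for replicate 2. When FPKM was recomputed with TMM library sizes, or with a pseudocount of 5, Kdm5b was the 1 member left. With a pseudocount of 0.1, Dnmt3a and Kmt2e joined for 6 in all, and without CPEB1 IP replicate 2 the rule found 2 (Kdm5b and Hdac1).

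The second question was how the precipitate compared with the RNA of the cells. Against input, 11 of 56 members tested were higher in CPEB1 IP (19.6%) and 7 were lower (12.5%), beside 17.0% and 15.8% of all 12171 genes tested. Their median log2 fold change was -0.00, as that of all genes. The control antibody was then set against input in the same way, where 9 of 56 members were higher (16.1%) and 12 lower (21.4%), beside 21.4% and 19.4% of 12980 genes. Without the filter on low counts, 3 of 64 members were higher and 15 lower, beside 4109 and 3066 of all genes. With DESeq2 it was 3 and 7 of 64, beside 1188 and 1602 of all genes. Both fits kept every gene with a count, more than 12980, so they give no share over all genes. These 3 comparisons share libraries in pairs, so values are given side by side.

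In 4 members, both precipitates were higher than input. Kdm7a, a Jumonji demethylase, was at 280 and 264 CPM in CPEB1 IP, against 294 and 319 in IgG, and input had 129 and 143. Its log2 fold change over input was 1.05 ± 0.13 for CPEB1 IP (adjusted p = 9.01e-05) and 1.17 ± 0.16 for IgG (adjusted p = 1.65e-07). Kdm7a also held the most CPEs of all members, 18, without being higher in CPEB1 IP than in IgG (-0.24 ± 0.10, adjusted p = 0.0642). Kdm1a (LSD1), a flavin-dependent demethylase of lysine 4 of histone H3 used in muscle differentiation, was at 128 and 124 CPM in CPEB1 IP, against 156 and 141 in IgG, and input had 80.1 and 63.0. The log2 fold change over input was 0.86 ± 0.16 for CPEB1 IP (adjusted p = 0.00138) and 1.05 ± 0.19 for IgG (adjusted p = 1.90e-05).

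Hdac4, a class IIa deacetylase that restrains MEF2, was at 521 and 498 CPM in CPEB1 IP, against 456 and 417 in IgG, and input had 351 and 249, so input was the lowest group. It was 0.81 ± 0.16 over input for CPEB1 IP (adjusted p = 0.00212) and 0.53 ± 0.16 for IgG (adjusted p = 0.00560) on the log2 scale. Setd1a, a methyltransferase for lysine 4 of histone H3, was at 43.3 and 34.3 CPM in CPEB1 IP, against 55.4 and 29.9 in IgG, and input had 22.7 and 28.7, and differed from input by 0.63 ± 0.22 for CPEB1 IP (adjusted p = 0.0412) and 0.73 ± 0.29 for IgG (adjusted p = 0.0414) on the log2 scale. For none of these 4 did CPEB1 IP and IgG differ by the test. Of the 11 members higher than input in CPEB1 IP, 4 were also higher than input with the control antibody. Both comparisons use the same input libraries, and the same overlap over all genes was not counted. The number is therefore a description. The calls of Kdm7a and Kdm1a held with any library left out, as did that of Hdac4 for CPEB1 IP. Hdac4 for IgG lost its call without IgG replicate 1 (adjusted p = 0.178) or 2 (adjusted p = 0.0673), and Setd1a lost it for CPEB1 IP without CPEB1 IP replicate 1 (adjusted p = 0.299), CPEB1 IP replicate 2 (adjusted p = 0.0818) or input replicate 1 (adjusted p = 0.132). For IgG, Setd1a did so without IgG replicate 1 (adjusted p = 0.744) or input replicate 1 (adjusted p = 0.124). With DESeq2 and without the filter, in that order, the adjusted p was 0.118 and 0.283 for Hdac4 in IgG, 0.188 and 0.0873 for Setd1a in CPEB1 IP and 0.441 and 0.323 for Setd1a in IgG. Setd1a in CPEB1 IP also missed the threshold with all 6 libraries in 1 fit (adjusted p = 0.0841) and with the replicate block (adjusted p = 0.0524).

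The other 7 members higher in CPEB1 IP than in input, Kdm5a and Kdm5b among them, were not called for IgG against input. Setd6, which methylates the p65 subunit of NF-κB, was at 34.2 and 45.2 CPM in CPEB1 IP, against 38.0 and 25.5 in IgG, and input had 22.4 and 22.0, 0.91 ± 0.22 over input on the log2 scale (adjusted p = 0.00706). Kmt5a, the monomethylase of lysine 20 of histone H4, was at 17.9 and 19.0, 21.3 and 11.7, and 7.98 and 13.2 CPM in the same order of groups (0.86 ± 0.31, adjusted p = 0.0470). In both, the IgG libraries reached into the range of CPEB1 IP. Setd1b, the paralogue of Setd1a, was at 44.2 and 40.3, 36.5 and 31.3, and 17.5 and 33.4 CPM (0.78 ± 0.26, adjusted p = 0.0328). Sirt1, a nuclear deacetylase that links NAD levels to SC metabolism, was at 50.8 and 50.4, 44.8 and 26.2, and 27.9 and 38.7 CPM (0.66 ± 0.20, adjusted p = 0.0216). Setd2, the trimethylase of lysine 36 of histone H3, was at 129 and 137, 129 and 119, and 93.0 and 106 CPM (0.48 ± 0.14, adjusted p = 0.0209). Against IgG, none of these mRNAs passed the test, with differences from 0.04 for Setd2 to 0.45 for Sirt1. All 5 calls over input rested on few libraries. Setd6 lost its call without CPEB1 IP replicate 2 (adjusted p = 0.205), and Setd2 without CPEB1 IP replicate 1 (adjusted p = 0.132) or 2 (adjusted p = 0.334). Without CPEB1 IP replicate 1, CPEB1 IP replicate 2 or input replicate 1, in that order, the adjusted p was 0.107, 0.237 and 0.197 for Kmt5a, 0.0960, 0.0618 and 0.187 for Setd1b, and 0.102, 0.151 and 0.0918 for Sirt1. With DESeq2 it was 0.223 for Kmt5a, 0.122 for Setd1b, 0.124 for Sirt1 and 0.0905 for Setd2, without the filter 0.0738 for Kmt5a and 0.0554 for Setd2, and with all 6 libraries in 1 fit 0.0704 for Kmt5a.

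**Figure D4:**
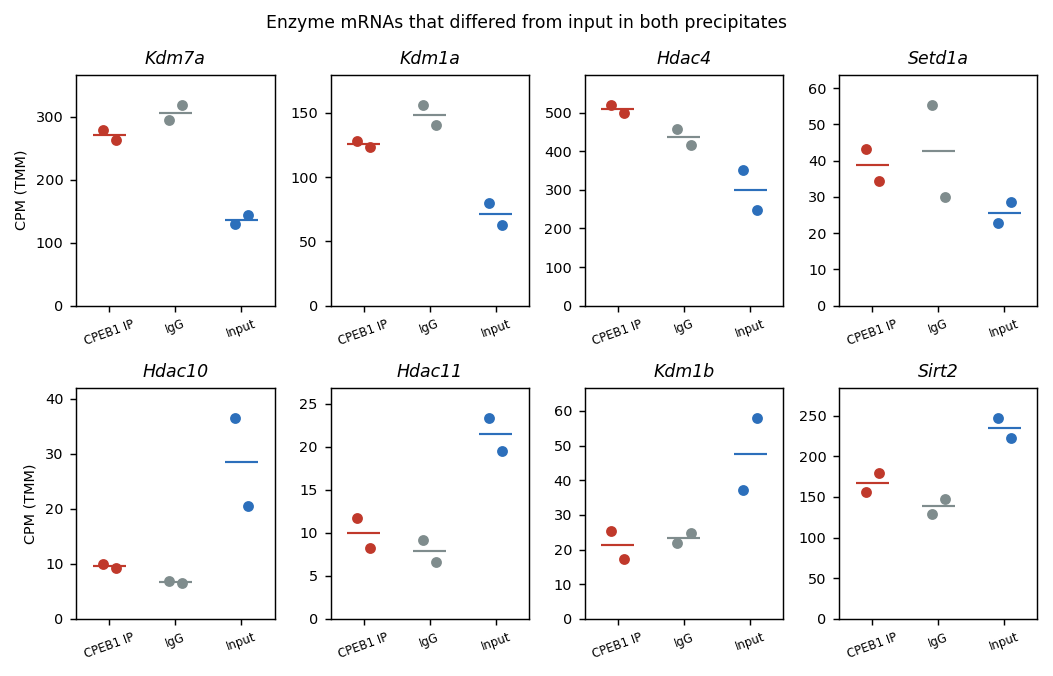
TMM-scaled CPM in each library (points) and group means (bars), on linear axes from 0, for 8 members whose CPEB1 IP and IgG libraries both differed from input by the test. In Kdm7a, Kdm1a, Hdac4 and Setd1a the input mean is the lowest, and in Hdac10, Hdac11, Kdm1b and Sirt2 it is the highest.

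The reverse order, with input above both precipitates, was seen for 2 of the 3 class IIb and IV deacetylases. Hdac10, a polyamine deacetylase, had 24 and 45 counts in CPEB1 IP, against 9 and 9 in IgG, and input had 119 and 65. The CPM was 6.84 and 6.56 in IgG and 36.5 and 20.5 in input, and the log2 fold change was -1.52 ± 0.32 for CPEB1 IP against input (adjusted p = 0.00308) and -2.09 ± 0.43 for IgG (adjusted p = 1.30e-04). Hdac11, the one class IV enzyme, was at 11.7 and 8.26, 9.11 and 6.56, and 23.3 and 19.5 CPM, or -1.10 ± 0.30 (adjusted p = 0.0131) and -1.45 ± 0.42 (adjusted p = 0.00531). Hdac6 of the same list was lower than input for IgG (-1.13 ± 0.24, adjusted p = 2.40e-04) and not called for CPEB1 IP (-0.35 ± 0.18, adjusted p = 0.151). Hdac10 held its calls with any library left out, while Hdac11 lost that for CPEB1 IP without CPEB1 IP replicate 2 (adjusted p = 0.156) and that for IgG without IgG replicate 2 (adjusted p = 0.0670), and both with DESeq2 (adjusted p = 0.0654 and 0.0952). These genes span 5394 to 18028 bases, and no CPE was found in the annotated 3′ UTR of any of the 3.

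Kdm1b, the paralogue of Kdm1a, went the opposite way from it, with 25.4 and 17.3 CPM in CPEB1 IP, against 22.0 and 24.8 in IgG, and input had 37.1 and 57.9. It was -1.14 ± 0.26 against input for CPEB1 IP (adjusted p = 0.00455) and -1.02 ± 0.28 for IgG (adjusted p = 0.00394), and it shares exonic bases with Dek. Sirt2 was at 156 and 179 CPM in CPEB1 IP, against 129 and 148 in IgG, and input had 247 and 223, with -0.43 ± 0.14 (adjusted p = 0.0302) and -0.76 ± 0.16 (adjusted p = 2.67e-04) against input. Its exons overlap those of Nfkbib. Dnmt1, at 32.2 and 20.5 CPM in input, was at 14.6 and 11.4 in CPEB1 IP and 11.4 and 21.9 in IgG. It was lower than input for CPEB1 IP (-1.01 ± 0.30, adjusted p = 0.0195), and IgG overlapped input. Kdm4c, a relative of Kdm4a, was at 8.75 and 12.6, 9.87 and 19.7, and 16.6 and 25.8 CPM (-0.89 ± 0.31, adjusted p = 0.0433). Kdm1b held its call for CPEB1 IP with any library left out and lost that for IgG without input replicate 2 (adjusted p = 0.0977). Sirt2 lost its call for CPEB1 IP without CPEB1 IP replicate 1 (adjusted p = 0.393) or 2 (adjusted p = 0.110), Dnmt1 without CPEB1 IP replicate 2 (adjusted p = 0.127) or input replicate 1 (adjusted p = 0.0909), and Kdm4c without CPEB1 IP replicate 1 (adjusted p = 0.223) or input replicate 2 (adjusted p = 0.207). DESeq2 did not call Dnmt1 (adjusted p = 0.0697) or Kdm4c (adjusted p = 0.138) for CPEB1 IP, nor Kdm1b for IgG (adjusted p = 0.0661), and with the replicate block Sirt2 missed the threshold for CPEB1 IP (adjusted p = 0.0578).

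A further 7 members were called for IgG against input, of which Kmt2e was also called for CPEB1 IP against IgG. Higher in IgG were Sirt7, a nucleolar sirtuin, at 50.1 and 55.4 CPM against 39.9 and 23.3 in input (0.73 ± 0.27, adjusted p = 0.0252) and Kmt2b at 63.8 and 55.4 against 45.7 and 33.1 (0.59 ± 0.24, adjusted p = 0.0468). Lower in IgG was Kmt5c, which trimethylates lysine 20 of histone H4, at 4.56 and 10.2 CPM against 20.9 and 14.5 (-1.25 ± 0.46, adjusted p = 0.0254). Ezh1 was lower as well, at 26.6 and 43.7 against 59.8 and 62.0 (-0.79 ± 0.25, adjusted p = 0.0101). So was Kdm4b, at 61.5 and 63.4 against 125 and 78.4 (-0.71 ± 0.22, adjusted p = 0.00812). Kmt2e and Kmt2d, outside the naming rule there and named after their values were seen, were -0.49 ± 0.16 (adjusted p = 0.0109) and -0.38 ± 0.15 (adjusted p = 0.0411). None of these 7 calls held with every library left out. Without IgG replicate 1 the adjusted p was 0.0626 for Sirt7, 0.296 for Kmt2b, 0.255 for Kmt5c, 0.266 for Ezh1, 0.0692 for Kdm4b, 0.238 for Kmt2e and 0.154 for Kmt2d. Leaving out 1 IgG library thus ended every one of them. Without IgG replicate 2 it was 0.159 for Sirt7, 0.105 for Kmt2b, 0.0535 for Kdm4b, 0.0843 for Kmt2e and 0.412 for Kmt2d. Without input replicate 1 it was 0.169 for Kmt5c, 0.312 for Kdm4b and 0.292 for Kmt2d, and without input replicate 2 it was 0.304 for Sirt7 and 0.311 for Kmt2b. With DESeq2 it was 0.365 for Sirt7, 0.457 for Kmt2b, 0.204 for Kmt5c, 0.0897 for Ezh1 and 0.0575 for Kdm4b, without the filter 0.275 for Sirt7 and 0.363 for Kmt2b, and with RLE size factors 0.0560 for Kmt2d. Dnmt3a, lower in IgG than in input by -0.52 ± 0.20 (adjusted p = 0.0372), lost its call without either IgG library (adjusted p = 0.204 and 0.144) or input replicate 1 (adjusted p = 0.438), and with DESeq2 (adjusted p = 0.114).

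Markers of other cell types moved with the comparisons against input. All 5 endothelial markers were higher in CPEB1 IP than in input, with a summed level of 12.3 to 12.5 FPKM against 4.13 to 4.73. So were 3 of 4 Schwann cell markers (22.2 to 27.3 against 11.2 to 14.4). Of 4 fibro-adipogenic markers tested, 3 were higher (69.9 to 73.9 against 34.8 to 39.5 summed over the 5 listed). Satellite cell markers were lower for 5 of 10 and higher for none, and mural markers were lower for 3 of 5. In IgG, 4 of 5 endothelial, 3 of 4 Schwann and 4 of 5 fibro-adipogenic markers were higher than in input by the count test. Summed FPKM in IgG was 5.14 to 7.53 for the endothelial markers, above input. For the Schwann and fibro-adipogenic markers it was 12.2 to 13.6 and 30.1 to 37.2, which overlapped input. Deposited FPKM is not on the TMM scale of the test, and in IgG it was low against CPEB1 IP for most genes. Satellite cell markers were lower in IgG than in input for 8 of 10 and higher for none, with a median log2 fold change of -1.07, and mural markers were lower for 2 of 5. Of 4 haematopoietic markers tested there, 2 were higher, and 1 of 4 myofibre markers was. Between CPEB1 IP and IgG, 0 of 5 endothelial and 0 of 4 Schwann markers were called by edgeR or by DESeq2 (0 and 1 at an unadjusted p under 0.05), and 6 of 10 satellite cell and 2 of 5 fibro-adipogenic markers were higher in CPEB1 IP. All 4 haematopoietic markers tested there were called, Cd74 and Lyz2 higher and Ptprc and Cd68 lower, and Acta2 of the mural and Acta1 of the myofibre markers were higher. Between CPEB1 IP and input, only 4 fibro-adipogenic and 3 haematopoietic markers could be tested, fewer than in the comparisons with IgG. A marker tested only with IgG passed the filter on low counts with the help of its IgG counts, and a call of it is a description. Of the haematopoietic markers 1 of 5 had no count in either input library, and no other listed marker was at 0 in both libraries of a group. The sort against CD31, CD45 and Sca1 would remove endothelial, haematopoietic and Sca1+ fibro-adipogenic cells. For the level of a marker in input, fewer cells of a type cannot be told apart from less RNA per cell, and the part of these markers in the results was not tested.

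**Figure D5:**
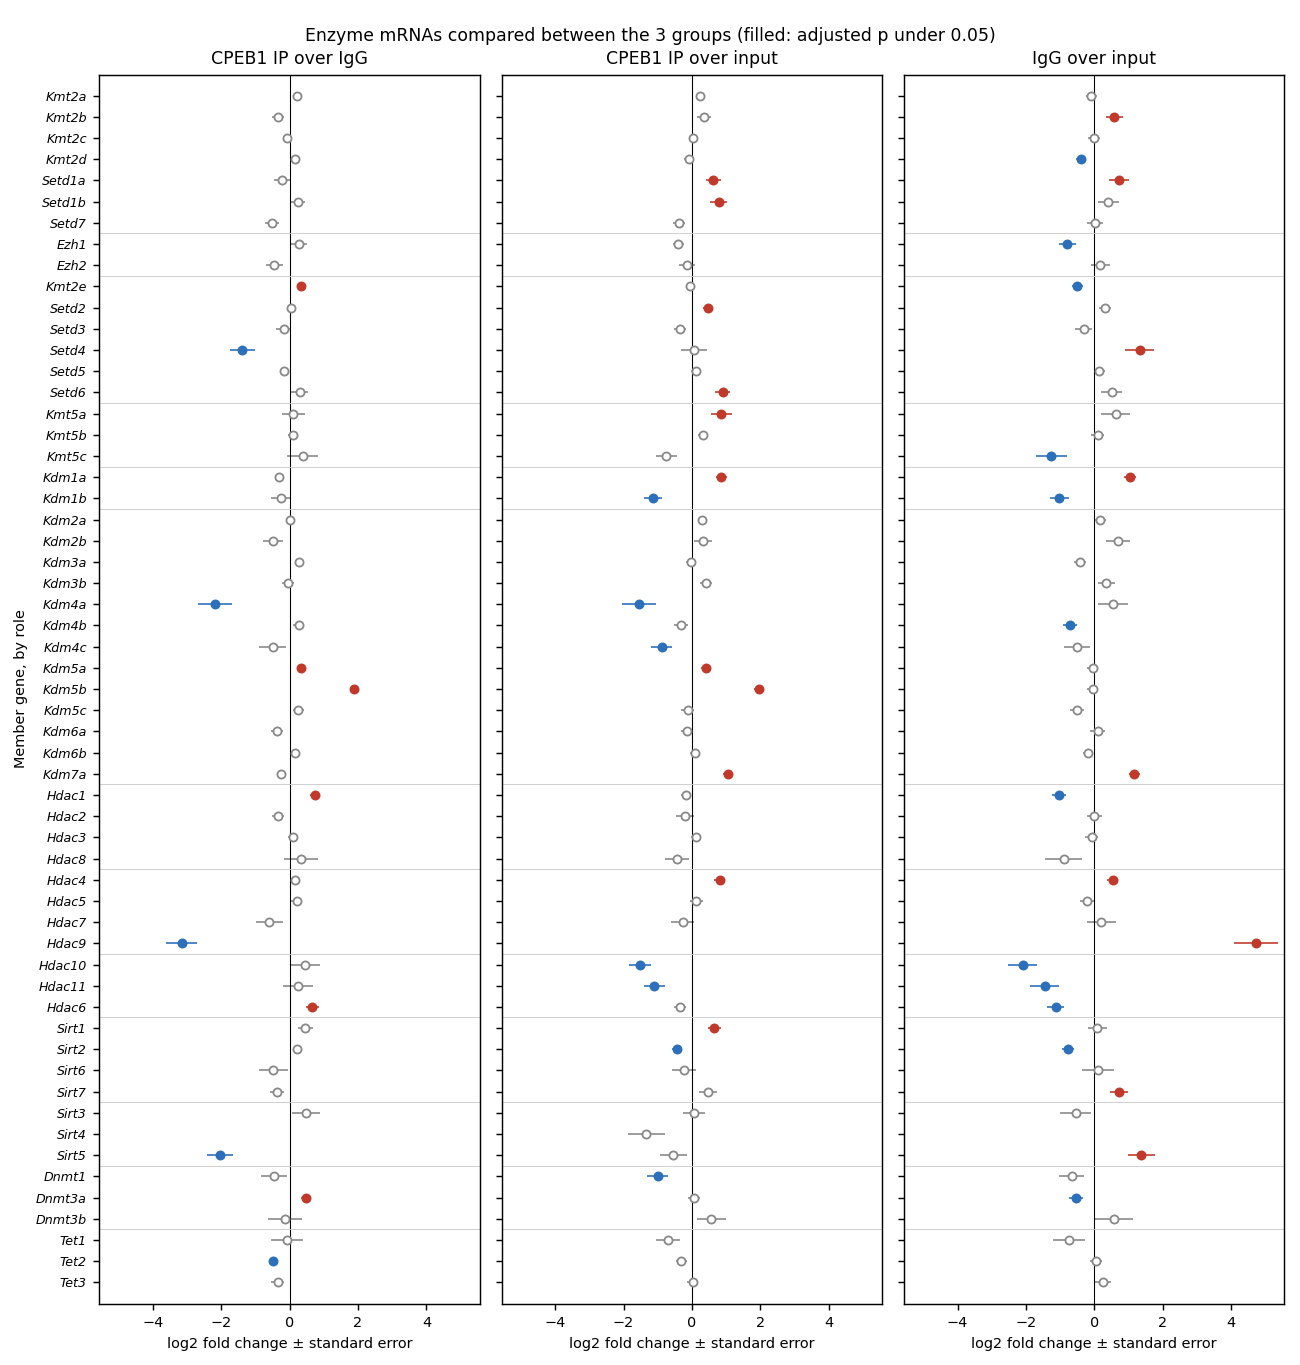
Log2 fold change with its standard error for every member tested, in the 3 comparisons, ordered by role with lines between roles. Filled points passed an adjusted p of 0.05 (red higher, blue lower). Kdm5b at 1.89 and 1.96 is the farthest to the right of the called members in the left and middle panels, and most other points of the left panel lie within 1 of 0.

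By role, at most 2 members of a list were called in the same direction between CPEB1 IP and IgG, beside 14.7% of all genes higher and 18.7% lower. Ezh2 was at 35.8 and 26.2 CPM in CPEB1 IP, against 47.1 and 32.0 in IgG, and input had 29.5 and 40.3, and its groups overlapped. Setd7 was at 35.4 and 32.8, 51.6 and 41.5, and 45.7 and 45.3 CPM, lowest in CPEB1 IP without passing the test (-0.52 ± 0.21, adjusted p = 0.0570). Of the 13 Jumonji demethylases tested, 2 were higher than in IgG and 1 was lower, Kdm4a, for which this is a description. Kdm6b, the most abundant, was at 1208 and 1074 CPM in CPEB1 IP, against 976 and 983 in IgG, and input had 1156 and 1070, with a log2 difference of 0.15 ± 0.09 from IgG (adjusted p = 0.220). Its level was thus near that of input in CPEB1 IP, unlike that of Kdm5b.

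Kmt2a, Kmt5b and Tet3 did not pass the test in any comparison, with 0.21, 0.09 and -0.35 against IgG on the log2 scale. Kdm6a was -0.37 ± 0.19 against IgG (adjusted p = 0.136), and Hdac2 -0.34 ± 0.18 (adjusted p = 0.143). Members with too few counts to be tested against IgG were Sirt4, Kdm8, Kdm4d, Kdm4dl, Dnmt3l, Dnmt3c, Dnmt3aos, Dnmt3bos and Kdm6bos, none of which exceeded 16 counts in a library. Dnmt3c had 3 and 3 counts in IgG and none in CPEB1 IP, and Dnmt3bos had none anywhere.

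CPEs were common in these genes. Of the 56 tested members, 47 held at least 1 of the 2 elements in an annotated 3′ UTR (83.9%), against 68.2% of all genes tested against IgG that have one. The members' 3′ UTRs were also somewhat longer, with a median of 1635 bases against 1486. Among members, those with an element had a median log2 fold change of -0.08 in CPEB1 IP over IgG and the 9 without one had 0.26. For all genes the medians were -0.02 and 0.15. Against input the order was the other way round, 0.02 with and -0.33 without an element, and for IgG against input it was 0.09 and -0.71. Exon length, which was 7032 bases at the median of these members and 4676 for all genes tested, had a Spearman correlation across genes of -0.11 with the log2 fold change over IgG among the 56 members and -0.28 among all genes. Genes of 1 library share its depth and base composition, so these are descriptions.

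Partners of the enzymes were read from lists of 83 further genes, of which 78 were tested against IgG. There 11 were higher and 7 lower, beside 14.7% and 18.7% of all genes. Subunits of deacetylase corepressors, the NuRD, Sin3, CoREST and NCoR complexes in which Hdac1, Hdac2 and Hdac3 work, had 5 higher and 0 lower of 20 tested against IgG by edgeR (1 lower at an unadjusted p under 0.05, and 9 higher and 0 lower by DESeq2). Against input 7 were higher and 2 lower, where 17.0% and 15.8% of all genes were. With the control antibody 5 were higher and 2 lower than input, where 21.4% and 19.4% of all genes were. Gatad2a, Rcor1, Mbd2 and Ncor1 were higher than input, and Sin3a and Tbl1x lower, in both precipitates. Chd4, the ATPase of NuRD, was at 909 and 898 CPM in CPEB1 IP, against 254 and 244 in IgG, and input had 296 and 336. It was higher than IgG by 1.79 ± 0.10 (adjusted p = 7.02e-11) and than input by 1.57 ± 0.13 (adjusted p = 3.75e-06) on the log2 scale, a difference of the size seen for Kdm5b. The others higher than in IgG were Mbd3, also of NuRD, at 0.76 ± 0.14 (adjusted p = 2.50e-04), Sin3b at 0.48 (adjusted p = 0.00496), Mta2 at 0.45 (adjusted p = 0.00424) and Gatad2b at 0.35 (adjusted p = 0.0217). Among subunits of Polycomb repressive complex 2, 2 of 8 were higher than in IgG, Aebp2 and Rbbp7, while Ezh1 and Ezh2 were not called. COMPASS subunits, partners of the Kmt2 and Setd1 enzymes, had 1 of 10 higher, Men1. Other histone lysine methyltransferases had 4 of 17 lower, and 0 higher by edgeR, at an adjusted or unadjusted p, and 1 by DESeq2. Smyd1 is among these 4 and reached 6.84 and 5.83 CPM with the control antibody, while its CPEB1 IP libraries stood at 0.42 and 0.21. Its counts were too few for a test of CPEB1 IP against input. Like Hdac9, it could be tested only because IgG was high. Suv39h2, another of these 4, and Uhrf1, a partner of DNA methylation, also passed the filter on low counts only through IgG. The places of these genes in their lists, and among the 7 lower partners, are therefore a description. Of 8 arginine methyltransferases 1 was higher, Prmt5, and of 5 readers and partners of DNA methylation 1 was higher, Tdg, and 2 lower, Uhrf1 and Uhrf2. Histone acetyltransferases, which oppose the deacetylases, had 1 higher, Kat7, and 1 lower, Kat6b, of 10.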

How the data were processed

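RIP-seq of CPEB1 in SCs gave 6 libraries in 3 groups, which were taken from the sample labels. The authors mapped reads to mm10 with HISAT and deposited raw counts per gene from featureCounts, without normalization, and the FPKM they computed from them. The annotation release, the strand setting and the treatment of reads with several positions are not given in the sources used here. Raw counts were compared 2 groups at a time in R 4.3.3 with edgeR 4.0.16 (filterByExpr, TMM, quasi-likelihood test, Benjamini-Hochberg adjustment over all genes tested, called at 0.05), and the standard error is the log2 fold change divided by the square root of F. The procedure was tested on simulated data. CPM and FPKM are given by library. Genes, exon overlaps and 3′ UTRs came from GENCODE M21, in which all 65 members had the start and end of the files. DESeq2 1.42.0, RLE size factors, no filter on low counts, all 6 libraries in 1 fit, the replicate number as a block, each library left out in turn, pseudocounts of 0.1 and 5 and TMM-scaled FPKM were alternatives. Members, role lists, partner lists and marker lists were chosen with earlier results of these data known. Named were, for each comparison, up to 10 called members a direction by size of the log2 fold change with a mean FPKM over 0.5, those studied in SCs, and the 5 highest in input. Depth was 1284716 to 4941653 counts on genes, lowest in IgG, and 2 libraries a group limit the precision. Other steps used Python 3.11.15 with pandas 2.3.3, numpy 2.4.6, scipy 1.17.1 and matplotlib 3.10.9. A further sequence is not reported here.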

Additional observations from a re-analysis of the deposited data

How the results depend on the processing

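With 2 libraries a group, and IgG at the lowest depth, small differences rest on single libraries. Of 56 members tested against IgG, 6 were higher and 5 lower. The counts were 15 and 3 of 64 with DESeq2 and 17 and 4 of 64 without a filter on low counts. Over all genes they were 1779 and 2265, then 2619 and 984 with DESeq2 and 3513 and 2336 without the filter. Those 2 fits kept every gene with a count, so their counts over all genes, here and below, give no share comparable with the main fit. The members' median log2 fold change of 0.02 became 0.23 and 0.34 under these 2 settings and 0.06 to 0.13 with a library left out. Against input, 11 higher and 7 lower became 5 and 3 of 63 with DESeq2, beside 1230 and 1190 of all genes. Of the 56 members tested in the main fit, 3 had no adjusted p with DESeq2 there. Without the filter they became 7 and 7 of 63, beside 2135 and 1918 of all genes. With a library left out the medians were -0.10 to 0.03. For IgG against input, 9 higher and 12 lower became 3 and 7 with DESeq2, 3 and 15 without the filter, and 4 to 8 and 6 to 15 with a library left out (4 and 6 without IgG replicate 1, 5 and 9 without IgG replicate 2), with medians of -0.06 for DESeq2, -0.20 without the filter and -0.12 to 0.03 with a library left out. DESeq2 and the unfiltered fit moved the centre of all genes by 0.28 and 0.40 for CPEB1 IP against IgG and by -0.14 and -0.27 for IgG against input. Members by the FPKM ratio, 4, became 1 with a pseudocount of 5, 1 with TMM-scaled FPKM, and 2 to 5 with a library left out.

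Single members changed sign in 5 of 512 comparisons with an alternative, all of them for differences that passed no test. Kdm1a against IgG was 0.095 without the filter, and Kdm7a against IgG 0.040 with DESeq2 and 0.15 without the filter. Dnmt3a in CPEB1 IP against input went from -0.18 (without input replicate 2) to 0.32 (without input replicate 1). Kdm5b in IgG against input was -0.17 without input replicate 2 and 0.086 without input replicate 1, with -0.32 the lowest over all settings. In 397 the direction and the side of the threshold were as given, in 108 the call was lost, and in 2 it was gained (Hdac6 and Tet2 lower than input, -0.56 and -0.46, without input replicate 2). The cause was not tested. The called differences that held under all alternatives were those of Kdm5b, Hdac1 and Sirt5 against IgG, of Kdm5b, Kdm7a, Kdm1a, Hdac4, Hdac10 and Kdm1b in CPEB1 IP against input, and of Kdm7a, Kdm1a, Hdac10, Hdac6, Hdac1 and Sirt2 in IgG against input. Hdac9, which could be tested only through its counts in IgG, is left out of these. Sirt5 against IgG also passed the filter only through IgG, with CPEB1 IP replicate 1 just under the limit. Its place here is a description. The study set each CPEB1 IP against the IgG of its own experiment, and the labels do not say whether a replicate number marks an experiment. Deviations of same-numbered libraries from their group means had correlations of 0.002, -0.02 and 0.02 across 22062 genes, which neither shows nor excludes a shared experiment. With the replicate number as a block, 6 of 56 members were higher and 5 lower than in IgG, beside 1739 and 2231 of all genes. It was 9 and 6 of 56 in CPEB1 IP against input, beside 1937 and 1804. In IgG against input it was 9 and 13 of 56, beside 2777 and 2681.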
